A study of Mus musculus with 18 samples.

Results

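Unstimulated fibroblasts from arthritic mouse paws were compared directly with naive fibroblasts that had received fibroblast growth factor 2 (FGF2). The members are 6 of the 18 libraries of the study: 3 labelled STIA (serum-transfer-induced arthritis, unstimulated) and 3 of naive cells labelled as FGF2-stimulated. They are the libraries with these labels, and every gene that passed a filter on low counts was tested. Members and the gene lists used below were chosen with earlier results of these data known, and no set test was run on the lists. All cells were wild-type synovial fibroblasts sorted from paws. The arthritic mice had received K/BxN serum, which carries antibodies that set off joint inflammation. FGF2 was given at 10 ng/mL for 3 days. A second pair of groups, arthritic cells with osteopontin (OPN, 50 ng/mL, 3 days) and naive cells with FGF2 and OPN at the same doses, shares no library with the first and is used as a further comparison. Unstimulated naive cells are given beside for their levels. Mouse age is not in the labels, and nothing in them ties a replicate to a mouse or culture of its own, so p-values measure only the spread between these samples, which may be technical. How long unstimulated cells were cultured is unknown here. Arthritic origin and absence of FGF2 go together in the comparison and cannot be told apart.

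FGF2 is a heparin-binding growth factor that signals through FGF receptor tyrosine kinases, mainly along the RAS-ERK cascade. ERK in turn induces its own inhibitors, the Sprouty and Spred proteins and the dual-specificity phosphatases, as well as ETS transcription factors and cyclin D1. Synovial fibroblasts build and maintain the lining of the joint. In arthritis they expand, secrete chemokines and matrix-degrading enzymes, and take part in tissue remodelling, and part of them acquires features of contractile, matrix-producing myofibroblasts.

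Total counts ran from 27678577 to 36910640 in the 6 libraries, and 18067 to 18757 genes had at least 1 count. A gene with 3 counts, the floor used here, corresponds to 0.0813 to 0.108 CPM (counts scaled to library size), which covers counting error only. On the first principal component of the 6 libraries, which held 83.8% of the variance, the arthritic and FGF2-treated libraries separated. The second (5.98%) separated FGF2 replicate 2, at -30.1, from FGF2 replicates 1 and 3, at 16.4 and 17.2, and for genes and lists that are named and move without replicate 2 the values without it are given. Fibroblast markers were present in every library: on plain library totals, Pdgfra was at 135 to 148 CPM in arthritic and 374 to 447 CPM in FGF2-treated libraries, and Thy1 at 623 to 669 and 253 to 270 CPM.

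Of 15072 genes tested, 8291 (55.0%) differed between arthritic and FGF2-treated cells at an adjusted p below 0.05 (edgeR quasi-likelihood test over all 18 libraries, Benjamini-Hochberg adjustment). Arthritic cells had the higher level for 4148 genes (27.5%) and FGF2-treated cells for 4143 (27.5%). A difference of at least 2-fold was called for 1246 genes (8.27%) on the arthritic side and 1317 (8.74%) on the FGF2 side. At 32-fold or more the numbers were 42 and 74. Without FGF2 replicate 2, 3772 genes were higher in arthritic cells and 3750 with FGF2. With library totals alone as the scaling, the split was 3428 to 4773. The libraries of the 2 groups did not overlap for 4750 genes (31.5%) with arthritic cells higher and for 4693 (31.1%) with FGF2-treated cells higher. Of the 6781 genes that were not called, 4028 had a 95% interval of the difference within 0.5 of 0 on the log2 scale. Log2 differences are arthritic minus FGF2-treated throughout, with ± as the standard error, and levels are CPM after TMM scaling, with 3 libraries a group listed as replicates 1, 2 and 3. In RNA from whole cell samples, fewer cells of a type and less RNA per cell cannot be told apart.

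Among genes with a mean of at least 5 CPM over the 6 libraries and no overlap, the 15 largest called differences in each direction are described. The largest of them on the arthritic side was in Ptx3 (chr3:66219910-66225805, GRCm38), which encodes pentraxin 3, a secreted pattern-recognition protein that can bind FGF2. Ptx3 was at 374, 427 and 529 CPM in arthritic libraries and at 1.57, 0.793 and 1.09 CPM with FGF2. The groups lay far apart, with a log2 difference of 8.59 ± 0.43 (adjusted p = 1.22e-09, 385-fold). Unstimulated naive cells had a mean of 608 CPM, so the arthritic libraries lay near the naive level and the FGF2 libraries far under it.

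Cxcl5, a chemokine that attracts neutrophils, was at 52.7, 60.4 and 81.7 CPM in arthritic libraries and at 1.53, 0.463 and 1.06 CPM with FGF2, again without overlap (5.99 ± 0.39, adjusted p = 1.99e-08). Pappa, a protease that cleaves insulin-like growth factor binding proteins, was at 125, 132 and 160 CPM against 2.4, 2.71 and 2.57 CPM (5.76 ± 0.18). The matricellular gene Ccn5 had 607, 628 and 682 CPM against 20.2, 26.4 and 18.8 CPM (4.87 ± 0.12, adjusted p = 5.56e-18), a 29.3-fold difference. Each of the 3 genes was high in all arthritic and low in all FGF2 libraries.

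Among the other genes of this side were the network collagen gene Col8a2 (6.32 ± 0.25), the P-cadherin gene Cdh3 (5.94 ± 0.27), the carbonic anhydrase gene Car6 (6.13 ± 0.27), the peptide hormone gene Adm2 (4.94 ± 0.28) and Lgr5, a receptor for R-spondins (4.92 ± 0.28). Without FGF2 replicate 3, the library with the highest FGF2-side levels of these genes, Col8a2 was at 7.06, Cdh3 at 6.73 and Lgr5 at 5.78. Megf6, with 8 counts in the FGF2 libraries together, differed by 7.14 ± 0.81 (ratio of CPM 140, counting interval 70.7 to 325). Arsi (5.52), Abi3bp (5.0), Parm1 (4.98) and Cdsn (4.76) completed the list of 15 together with Lmod1, described with the contractile genes.

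On the FGF2 side the stromelysin genes Mmp3 and Mmp10, whose proteases degrade proteoglycans and activate other metalloproteinases, stood among the 15 largest differences. Mmp3 (chr9:7445822-7455975) was at 808, 1800 and 735 CPM with FGF2 and at 8.51, 10.4 and 11 CPM in arthritic libraries, a 112-fold difference (-6.81 ± 0.37, adjusted p = 2.61e-09). Mmp10 (chr9:7502352-7510240) was at 121, 204 and 120 CPM with FGF2 and at 1.4, 0.691 and 1.28 CPM in arthritic libraries (-7.01 ± 0.25, adjusted p = 5.2e-13). The groups did not overlap for either gene, and FGF2 replicate 2 was the highest library for both. In naive cells the means were 22.1 CPM for Mmp3 and 0.091 CPM for Mmp10.

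The promoters of Mmp10 and Mmp3 are shown because their RNAs differ in the same direction and their genes lie close together on chromosome 9, and that of Ptx3 because its RNA leads the other direction. The first pair was chosen after a search for motifs, so its contrast with Ptx3 follows from that choice and carries no test. Windows run from 250 bases before to 50 bases after the RefSeq start (GRCm38.p6, plus strand), with capitals marking the letters TGANTCA, the site bound by AP-1 (FOS and JUN) factors. They lie at chr9:7502092-7502391 for Mmp10, chr9:7445572-7445871 for Mmp3 and chr3:66219637-66219936 for Ptx3.
Mmp10: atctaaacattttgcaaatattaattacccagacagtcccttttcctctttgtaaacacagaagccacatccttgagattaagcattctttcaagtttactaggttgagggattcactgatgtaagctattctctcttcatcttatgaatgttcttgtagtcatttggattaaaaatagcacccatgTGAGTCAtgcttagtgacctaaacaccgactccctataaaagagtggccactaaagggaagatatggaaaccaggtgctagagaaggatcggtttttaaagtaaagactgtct
Mmp3: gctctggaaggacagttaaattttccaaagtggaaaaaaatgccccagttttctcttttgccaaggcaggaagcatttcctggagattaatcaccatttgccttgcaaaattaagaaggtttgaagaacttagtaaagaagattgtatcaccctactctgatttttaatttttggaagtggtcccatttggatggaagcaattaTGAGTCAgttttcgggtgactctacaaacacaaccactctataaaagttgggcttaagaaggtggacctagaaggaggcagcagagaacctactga
Ptx3: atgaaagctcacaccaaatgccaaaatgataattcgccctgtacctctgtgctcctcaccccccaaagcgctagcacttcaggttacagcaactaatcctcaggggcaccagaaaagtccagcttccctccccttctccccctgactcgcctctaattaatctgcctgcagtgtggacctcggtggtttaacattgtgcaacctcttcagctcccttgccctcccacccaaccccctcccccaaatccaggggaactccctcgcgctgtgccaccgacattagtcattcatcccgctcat
The match started 63 bases before the start of Mmp10 and 46 bases before that of Mmp3, and the window of Ptx3 held none. The window of Tmem163, the largest difference of the 15 on the FGF2 side, held none either. Of the 15 genes named on the FGF2 side 10 had a promoter in the table and 3 held the letters, the other being Nwd2, and of the 15 on the arthritic side 8 had one and 0 held them. Over both strands, 6.63% of the 11382 tested genes with a promoter in the RefSeq table held these letters. The share was 9.15% (79 of 863) for genes at least 2-fold higher in arthritic cells and 13.8% (128 of 929) for genes at least 2-fold higher with FGF2. Other motifs were scanned as well, and AP-1 was not alone in its rise. A box of T and A letters was at 9.17% of all, 14.6% of arthritic-side and 13.1% of FGF2-side genes. The C/EBP-ATF composite was at 2.83%, 5.21% and 3.55% in the same order, and the ETS pair at 3.09%, 3.48% and 4.2%. The CRE site went the other way, at 3.41%, 2.32% and 1.61%. These shares were not tested. A match describes letters and not binding.

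Other large differences on the FGF2 side involved receptors, signalling enzymes and a cytokine. Nptx1, a neuronal pentraxin gene, was at 206, 276 and 194 CPM with FGF2 against 1.05, 0.728 and 0.639 CPM, without overlap (-8.09 ± 0.21, adjusted p = 1.83e-15). Tslp, an epithelial and stromal alarmin cytokine, was at 45.3, 123 and 38.2 CPM against 0.578, 0.473 and 0.355 CPM, and all FGF2 libraries lay above all arthritic ones (-7.16 ± 0.52, adjusted p = 3.82e-08). Agtr2, the angiotensin II type 2 receptor gene, differed by -8.44 ± 0.80, Cyp2f2 by -7.25 ± 0.89 and the urea transporter gene Slc14a1 by -6.40 ± 0.50. FGF2 replicate 2 was the highest library for these 4 genes; without it Tslp was at -6.44, Agtr2 at -7.52, Cyp2f2 at -6.14 and Slc14a1 at -5.74.

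Tmem163, a zinc transporter gene, had 2 counts in the arthritic libraries together and 12.2, 20.6 and 11.7 CPM with FGF2, a ratio of CPM of 709 with a counting interval of 196 to 5860. The protein kinase C beta gene Prkcb differed by -8.23 ± 0.56 (-8.95 without arthritic replicate 3) and Gpr149 by -6.99 ± 0.30 (-7.65 without arthritic replicate 2). Esm1, which encodes endocan, differed by -7.03 ± 0.29, Clic5 by -6.32 ± 0.29, and Nwd2, Cd300lb and Adcy8 by -6.71, -6.33 and -6.21. Arthritic libraries held 5 counts in all for Prkcb, 25 for Gpr149 and 12 to 29 for Nwd2, Esm1, Clic5 and Adcy8. Cyp2f2 (6), Agtr2 (16) and Slc14a1 (29) also had few, as had Car6 in the FGF2 libraries (13). The ratios of these genes are less exact than their calls. For Prkcb the ratio of CPM was 334 with a counting interval of 143 to 1030, and for Cyp2f2 167 (76.4 to 456).

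**Figure D1:**
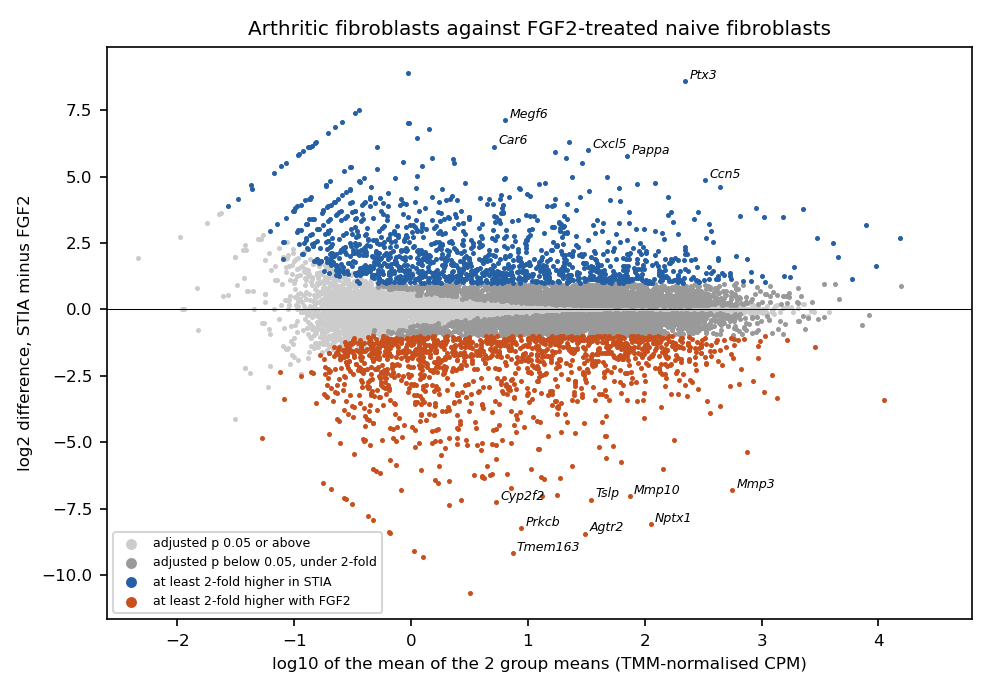
Each point is 1 of the tested genes: the x axis gives log10 of the mean of both group means in TMM-scaled CPM (genes at 0 in both groups are not drawn), the y axis the log2 difference STIA minus FGF2. Blue and orange points are called and at least 2-fold apart (1246 higher in STIA, 1317 higher with FGF2), dark grey points called under 2-fold, light grey points not called, and the labelled genes, such as Ptx3 and Mmp3, are among the 15 described in each direction.

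Most members of the ERK feedback and target list had the higher RNA level with FGF2. ERK activity itself was not measured. Immediate early genes, kept in another list below, had 11 of 21 members higher in arthritic cells and 6 with FGF2. Of 22 ERK feedback and target genes, 17 were higher with FGF2, 3 were higher in arthritic cells and 2 were not called, with a median difference of -1.38 against 0.004 over all genes. Ccnd1, cyclin D1, was at 1450, 1490 and 1460 CPM with FGF2 and at 260, 214 and 214 CPM in arthritic libraries (-2.68 ± 0.13, adjusted p = 6.57e-12). The ETS factor gene Etv1 was at 73.6, 105 and 65.8 CPM against 3.94, 4.91 and 4.12 CPM (-4.24 ± 0.20). For both genes the groups lay clearly apart.

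Feedback inhibitors followed: Spry4 (-3.18 ± 0.14), the ERK phosphatase gene Dusp6 (-2.44 ± 0.15), Spry2 (-2.40), Dusp5 (-2.27) and Spred1 (-1.97). Spry1, a Sprouty of the same family, went the other way, at 20.9, 22.4 and 26.8 CPM in arthritic libraries against 5.1, 5.88 and 4.88 CPM with FGF2 (2.14 ± 0.13, adjusted p = 4.69e-12). Myc (0.98 ± 0.12) and the ephrin receptor gene Epha4 (3.26 ± 0.25) were the other members higher in arthritic cells. Ier3 (0.03 ± 0.08) and Epha2 (0.05 ± 0.17) were not called.

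Arthritic cells did not sit at the naive level for all of these genes. Against naive, 57.1% of tested genes were called with FGF2 and 36.8% in arthritic cells. These comparisons share the naive libraries. Dusp4 was 2.25 higher (log2) in arthritic cells and 4.12 higher with FGF2, Etv4 1.89 and 3.97, Phlda1 1.54 and 2.77, and Spry4 1.14 and 4.32, all called. Etv1 differed from naive by 4.17 with FGF2 and by -0.07 in arthritic cells (adjusted p = 0.86), and Spry2 by 2.58 and 0.17 (adjusted p = 0.0573).

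Among FGF ligands and receptors, 7 of 17 tested genes were higher in arthritic cells and 5 with FGF2 (median 0.08). Fgf2 itself was at 433, 393 and 446 CPM with FGF2 and at 166, 161 and 137 CPM in arthritic libraries (-1.46 ± 0.18, adjusted p = 8.74e-06), and naive cells had a mean of 67.6 CPM. Fgf10, a mesenchymal ligand, was also higher with FGF2 (-2.39 ± 0.17), and so was Fgf1 (-3.56 ± 0.45). Fgf7, the keratinocyte growth factor gene, was higher in arthritic cells (1.0 ± 0.07).

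The receptors differed in opposite directions. Fgfr2 was at 34.9, 32.5 and 33.1 CPM in arthritic libraries and at 8.07, 7.47 and 9.03 CPM with FGF2 (2.03 ± 0.12, adjusted p = 4.11e-12), without overlap. Fgfr3 also was higher in arthritic cells (1.57 ± 0.20), whereas Fgfr1 was moderately higher with FGF2 (-0.40 ± 0.05) and so was the decoy receptor gene Fgfrl1 (-0.86 ± 0.10).

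Spp1, the gene of OPN, differed strongly. It was at 16600, 28000 and 16100 CPM with FGF2 and at 1890, 1940 and 1920 CPM in arthritic libraries (-3.40 ± 0.16, adjusted p = 1.66e-12), with a naive mean of 1420 CPM. All FGF2 libraries exceeded all arthritic libraries. Of its receptors, the integrin beta 3 gene Itgb3 was at 620, 632 and 616 CPM with FGF2 against 55, 55.3 and 60.9 CPM (-3.45 ± 0.08, adjusted p = 2.02e-19), and the groups were far apart. Cd44 was higher with FGF2 (-0.81 ± 0.11) and Itga4 likewise (-2.68 ± 0.21). Itgb5 (0.79 ± 0.06) and Itga9 (1.04 ± 0.10) were higher in arthritic cells, while Itgav (-0.03 ± 0.14), Itgb1 (0.09 ± 0.07), Itga5 (0.01 ± 0.08) and Itga8 (-0.24 ± 0.17) were not called.

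**Figure D2:**
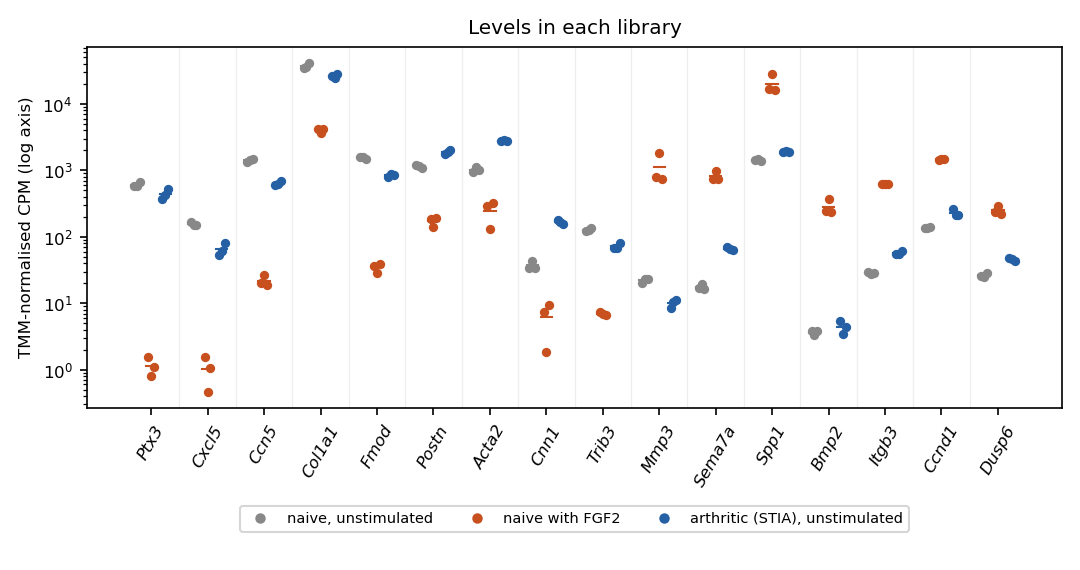
Points are single libraries (3 in each of naive unstimulated, FGF2 and STIA) and bars the group means, as TMM-scaled CPM on a log axis, for 16 genes named in the text. In Ptx3, Ccn5 and Col1a1 the STIA libraries lie near the naive ones and the FGF2 libraries far under them, and in Spp1, Itgb3 and Ccnd1 the FGF2 libraries lie far above both.

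The collagen genes were higher in arthritic cells: 18 of 21 tested chains, against 1 higher with FGF2, with a median of 1.42. Col1a1 was at 26400, 24400 and 28000 CPM in arthritic libraries and at 4250, 3690 and 4260 CPM with FGF2 (2.69 ± 0.12, adjusted p = 8.06e-15), a clear separation. The naive mean was 37000 CPM. Col12a1, a collagen that decorates fibrils, was at 1570, 1530 and 1960 CPM against 130, 78.2 and 154 CPM (3.81 ± 0.27). Col5a1, which helps to start fibrils, differed by 2.70 ± 0.09, Col11a1 by 2.24 ± 0.15 and Col1a2 by 1.63 ± 0.09.

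Col6a3 was the chain higher with FGF2 (-0.45 ± 0.08), whereas its partner chains Col6a1 (0.92 ± 0.11) and Col6a2 (1.58 ± 0.16) were higher in arthritic cells. Col16a1 (-0.10 ± 0.06) was called with library totals alone only (-0.16), and Col18a1 (0.04 ± 0.14) without FGF2 replicate 2 only (0.28). The basement membrane chains Col4a1 (0.54 ± 0.09) and Col4a2 (0.59 ± 0.09) stood above naive in arthritic cells, by 1.00 and 0.78, unlike the fibrillar chains Col1a1 and Col1a2, which lay 0.49 and 0.48 under it.

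Enzymes that modify and crosslink collagen were mostly higher in arthritic cells, with 15 of 20 in that direction and 3 in the other (median 0.64). Loxl2, a lysyl oxidase that crosslinks collagen, was at 422, 496 and 515 CPM in arthritic libraries against 43.9, 42.2 and 48.9 CPM with FGF2 (3.41 ± 0.14, adjusted p = 1.08e-12), and the groups did not overlap. Lox differed by 2.49 ± 0.13, the prolyl hydroxylase gene P4ha2 by 1.85 ± 0.17 and the collagen chaperone gene Serpinh1 by 1.58 ± 0.10. Adamts14, a procollagen N-proteinase gene, was higher with FGF2 (-1.69 ± 0.10), as were Pcolce2 (-1.0 ± 0.12) and Loxl3 (-0.45 ± 0.10).

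Proteoglycan and elastic fibre genes had 16 of 21 members higher in arthritic cells and 3 with FGF2 (median 1.46). Fmod, fibromodulin, was at 792, 876 and 857 CPM in arthritic libraries against 36.4, 28.7 and 38.6 CPM with FGF2, without overlap (4.61 ± 0.20, adjusted p = 1.31e-11). Other small leucine-rich proteoglycan genes followed: Aspn (4.25 ± 0.16), Prelp (4.07 ± 0.13) and Ogn (2.95 ± 0.11). The elastic fibre genes Eln (3.48 ± 0.41), Mfap5 (2.04 ± 0.09) and Fbln5 (1.93 ± 0.08) had the same direction.

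Decorin and lumican belong to that proteoglycan family and had the opposite sign. Dcn was at 143, 448 and 132 CPM with FGF2 against 59, 66.3 and 75.9 CPM (-1.84 ± 0.41, adjusted p = 0.00175) without overlap, and FGF2 replicate 2 was its highest library. Without that replicate Dcn was at -1.04. With the 6 libraries alone it was not called (adjusted p = 0.0621). Lum was at -1.32 ± 0.49 (adjusted p = 0.0363), and the groups overlapped. The call of Lum was lost in 6 alternatives, with -0.25 (adjusted p = 0.484) without FGF2 replicate 2 and adjusted p = 0.0656 with the replicate block. The third member higher with FGF2 was Ltbp1 (-1.15 ± 0.08), which encodes a binding protein of latent TGF-beta.

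Matrix glycoproteins had 14 of 21 members higher in arthritic cells and 6 with FGF2 (median 0.87). Postn, periostin, was at 1790, 1920 and 2000 CPM in arthritic libraries and at 187, 141 and 190 CPM with FGF2 (3.46 ± 0.12, adjusted p = 2.92e-15), far apart. Thbs1, thrombospondin 1, differed by 3.17 ± 0.26, the cartilage oligomeric matrix protein gene Comp by 2.94 ± 0.15 and the fibronectin gene Fn1 by 0.87 ± 0.11. Tnxb, tenascin X, was higher with FGF2 (-2.70 ± 0.21), and so were Tgfbi (-1.90 ± 0.18), Nid1 (-0.84 ± 0.07) and Smoc2 (-0.78 ± 0.11).

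The 27 tested genes of matrix degradation split into 10 higher in arthritic cells and 12 with FGF2. Their median of -0.08 changed sign without FGF2 replicate 2 (0.20), without arthritic replicate 2 (0.05) and with limma-voom (0.06). Beside Mmp3 and Mmp10, the collagenase gene Mmp13 was higher with FGF2, at 346, 464 and 362 CPM against 44.7, 56.2 and 60.2 CPM (-2.86 ± 0.34, adjusted p = 8.97e-06), and naive cells had a mean of 209 CPM. The plasminogen activator gene Plau (-1.21 ± 0.12) and its receptor gene Plaur (-1.05 ± 0.10) were higher with FGF2 as well, as were the cathepsin genes Ctsb (-1.14 ± 0.11) and Ctsl (-0.88 ± 0.14).

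Genes of other matrix proteases and of an inhibitor went the other way. Adamts5, an aggrecanase, was at 289, 280 and 367 CPM in arthritic libraries against 25.6, 21.5 and 26.1 CPM with FGF2 (3.68 ± 0.11, adjusted p = 5.48e-17), without overlap. Adamts12 differed by 2.51 ± 0.13 and the metalloproteinase inhibitor gene Timp3 by 1.86 ± 0.11. Mmp2 (0.03 ± 0.12) and Mmp14 (0.08 ± 0.07) were not called, but without FGF2 replicate 2 both were, at 0.26 and 0.20.

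**Figure D3:**
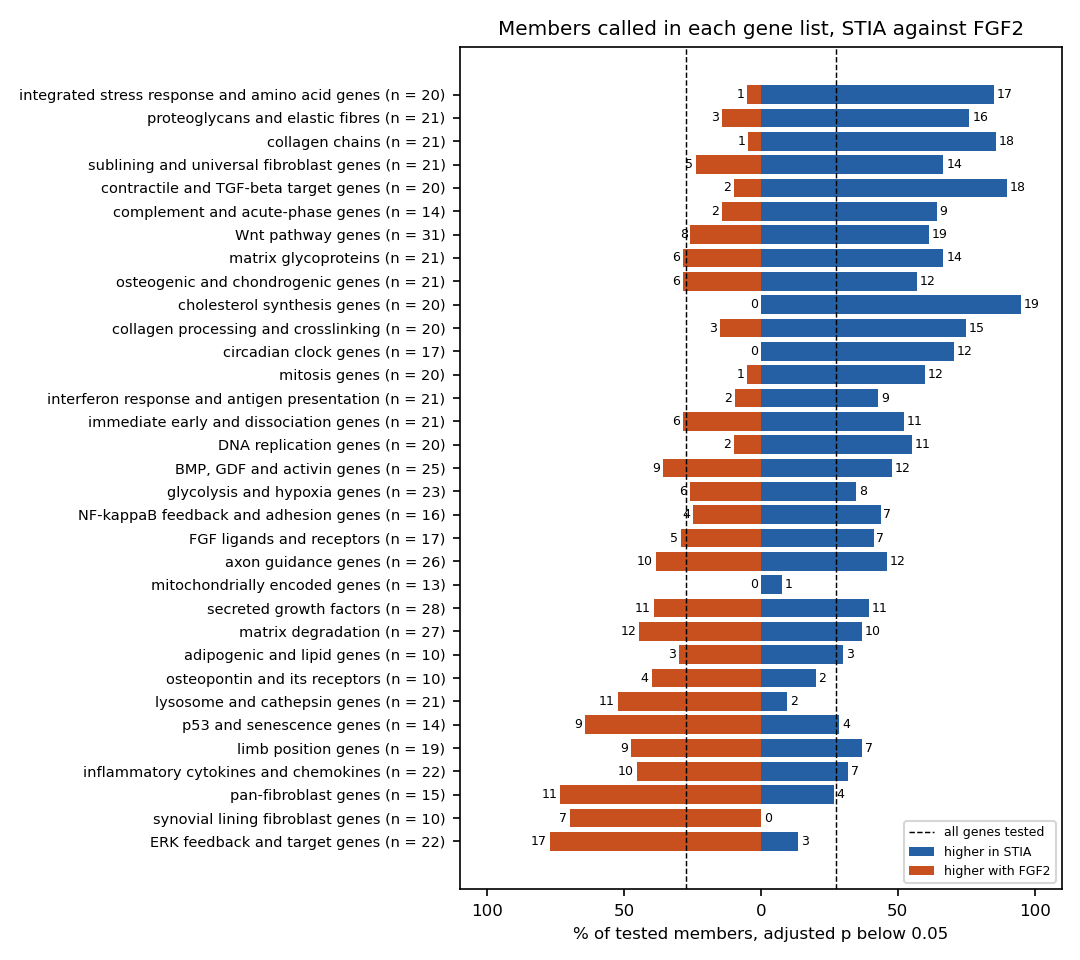
For each gene list, bars give the percent of its tested members called higher in STIA (to the right) or higher with FGF2 (to the left), and dashed lines mark 27.5%, the percent over all tested genes in each direction. Cholesterol synthesis, contractile genes and collagen chains extend farthest to the right, and ERK feedback genes farthest to the left.

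Contractile and TGF-beta target genes separated the groups in one direction: 18 of 20 were higher in arthritic cells and 2 with FGF2 (median 1.36). Acta2, smooth muscle actin, was at 2740, 2840 and 2810 CPM in arthritic libraries and at 290, 131 and 325 CPM with FGF2 (3.49 ± 0.31, adjusted p = 5.52e-07), without overlap. Cnn1, calponin 1, was at 178, 168 and 154 CPM against 7.37, 1.85 and 9.45 CPM (4.73 ± 0.40). Lmod1, which helps to start actin filaments in smooth muscle, was at 41.6, 41.2 and 41.1 CPM against 0.667, 0.694 and 0.999 CPM (5.70 ± 0.28, adjusted p = 1.32e-11). FGF2 replicate 2 was the lowest library for Acta2 and Cnn1.

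For these 3 genes the arthritic cells exceeded naive cells and the FGF2-treated cells lay under them. Naive means were 1020 CPM for Acta2, 37.2 CPM for Cnn1 and 8.51 CPM for Lmod1. Against naive, Acta2 was 1.45 higher in arthritic cells (adjusted p = 0.00173) and 2.04 lower with FGF2, Cnn1 2.17 and 2.57, and Lmod1 2.28 and 3.42. Tpm2 was 1.23 higher in arthritic cells, and with FGF2 it differed from naive by -0.15 (adjusted p = 0.234). The exceptions to the direction were Tgfb1 (-0.95 ± 0.07) and Tgfbr1 (-0.44 ± 0.09), higher with FGF2, whereas the ligand genes Tgfb2 (2.89 ± 0.23) and Tgfb3 (1.35 ± 0.07) were higher in arthritic cells. Itga11, a collagen-binding integrin, differed by 4.74 ± 0.19.

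**Figure D4:**
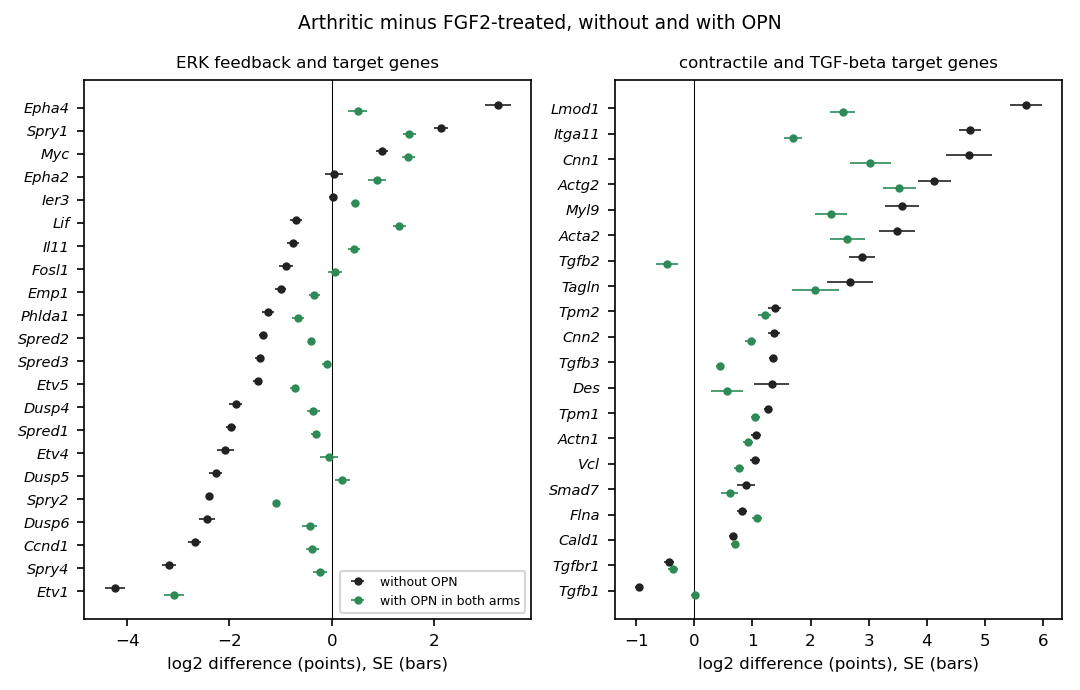
The members of the ERK feedback list and the contractile list are plotted by their log2 difference between arthritic and FGF2-treated cells (x axis), without OPN in black and with OPN in both arms in green, with bars for the standard error. Without OPN, 17 ERK genes are called left of 0 and 18 contractile genes right of it, and with OPN the median of the ERK genes moves from -1.38 to -0.17.

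Cytokine and chemokine genes did not follow one direction. Of 22 tested members, 7 were higher in arthritic cells and 10 with FGF2, with a median of -0.67 (-0.34 without FGF2 replicate 2). Beside Cxcl5, arthritic cells were higher for Cxcl14 (3.04 ± 0.24), Il6 (2.74 ± 0.36, and 3.49 without FGF2 replicate 1), the stem cell homing factor gene Cxcl12 (2.14 ± 0.12) and Cxcl1 (1.47 ± 0.17). Il6 was low in both groups, at 1.96 to 2.44 CPM in arthritic and 0.182 to 0.6 CPM in FGF2 libraries.

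Other members were higher with FGF2. Ccl2 was at 254, 432 and 245 CPM with FGF2 against 58.2, 56.8 and 60.2 CPM in arthritic libraries (-2.41 ± 0.20, adjusted p = 9.87e-08), without overlap, and the arthritic level lay at the naive mean of 57.2 CPM. Il33, an alarmin, was at 20.3, 102 and 17.4 CPM against 0.854, 0.619 and 0.852 CPM (-5.89 ± 0.73), and at -4.58 without FGF2 replicate 2, its highest library. The eotaxin gene Ccl11, with 19 counts in the arthritic libraries together, differed by -5.64 ± 0.65 (-4.61 without the same library). Ccl8 (-2.19 ± 0.26), Cx3cl1 (-1.68 ± 0.07), Il34 (-1.75 ± 0.10) and Lif (-0.70 ± 0.12) were also higher with FGF2.

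NF-kappaB feedback and adhesion genes gave 7 of 16 higher in arthritic cells and 4 with FGF2 (median 0.08). The inhibitor gene Nfkbia (-0.10 ± 0.11) and the subunit genes Nfkb1 (-0.12 ± 0.06) and Relb (-0.08 ± 0.09) were not called; Nfkb1 was called with library totals alone (-0.19) and with the 6 libraries alone (-0.13). The coactivator gene Bcl3 was higher in arthritic cells (2.61 ± 0.23), as were the adhesion genes Icam1 (1.15 ± 0.19) and Vcam1 (0.34 ± 0.08). Prostaglandin enzymes were divided: Ptgs2, cyclooxygenase 2, was at 526, 487 and 442 CPM in arthritic libraries against 250, 144 and 266 CPM (1.14 ± 0.19), while Ptges, which makes prostaglandin E2, was at 37.5, 32.3 and 36.3 CPM against 220, 351 and 217 CPM (-2.89 ± 0.16, adjusted p = 2.87e-10). Neither gene overlapped between the groups.

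Complement and acute-phase genes were higher in arthritic cells for 9 of 14 members and with FGF2 for 2 (median 1.36). C1ra, a classical pathway protease gene, was at 30.5, 30 and 34.9 CPM in arthritic libraries against 6.63, 10.1 and 6 CPM with FGF2 (2.07 ± 0.17, adjusted p = 3.16e-08), without overlap, and naive cells had a mean of 76.3 CPM. C3 differed by 1.36 ± 0.42 (not called without arthritic replicate 3, adjusted p = 0.0599, or FGF2 replicate 3, adjusted p = 0.0578) and C4b by 1.76 ± 0.50 (2.41 without FGF2 replicate 2). Both stood under naive in arthritic cells, by 2.64 and 2.79 on the log2 scale, and further under it with FGF2, by 4.0 and 4.56.

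Interferon response and antigen presentation genes were higher in arthritic cells for 9 of 21 members and with FGF2 for 2 (median 0.31), and 2 of the 9 differed by at least 2-fold. Without FGF2 replicate 2, 11 were higher in arthritic cells (median 0.45), with Gbp2 (0.51) and Oasl2 (1.18) called as well. Tap1, a peptide transporter gene, was at 15.6, 17.3 and 14.7 CPM in arthritic libraries against 8, 9.82 and 9.84 CPM with FGF2, without overlap (0.78 ± 0.10). The class I gene H2-K1 (0.77 ± 0.09) had the same direction. Ifit3 was higher with FGF2 (-1.28 ± 0.21), and Ifit1 (-0.08 ± 0.36) and Isg15 (0.56 ± 0.36) were not called. For Tap1 and H2-K1 the arthritic level lay between the FGF2 level and the naive one: the naive means were 25.4 and 104 CPM.

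Genes that mark the synovial lining layer were on the FGF2 side, 7 of 10 tested, with none called higher in arthritic cells (1 without FGF2 replicate 2) and a median of -1.15. Pdpn, podoplanin, was at 801, 874 and 811 CPM with FGF2 against 269, 253 and 254 CPM in arthritic libraries (-1.68 ± 0.06, adjusted p = 2.58e-16), without overlap. The hyaluronan synthase gene Has1 differed by -2.12 ± 0.23, Hbegf by -1.29 ± 0.10 and Cd55 by -1.01 ± 0.09. Prg4, the lubricin gene and the best known product of the lining, was at 951, 1310 and 963 CPM with FGF2 and at 1270, 1090 and 1110 CPM in arthritic libraries. Its groups overlapped (0.11 ± 0.11, adjusted p = 0.404), and both lay under the naive mean of 2350 CPM. Without FGF2 replicate 2 Prg4 was called higher in arthritic cells, at 0.28 (adjusted p = 0.0126).

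Sublining and universal fibroblast genes, kept as 1 list, pointed the other way: 14 of 21 were higher in arthritic cells and 5 with FGF2 (median 1.38). Thy1, the sublining marker CD90, was at 634, 644 and 694 CPM in arthritic libraries against 246, 267 and 247 CPM with FGF2 (1.38 ± 0.08, adjusted p = 8.66e-13), without overlap. Chrdl1 (3.68 ± 0.21), Sfrp1 (2.84 ± 0.34), Gas6 (1.92 ± 0.13) and Cd248 (1.58 ± 0.08) had the same direction. Cd34, a marker of another sublining population, was at 224, 319 and 227 CPM with FGF2 against 21.1, 17.9 and 20.8 CPM (-3.68 ± 0.22), and Penk at -5.16 ± 0.50 was also higher with FGF2. The other members higher with FGF2 were Pi16 (-3.36, and -2.24 without FGF2 replicate 2), Dpt (-2.2, and -1.49 without it) and Vwa1 (-0.88).

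The 15 pan-fibroblast genes had 4 members higher in arthritic cells and 11 with FGF2 (median -0.94). Without FGF2 replicate 2 the 11 became 8. The receptor genes for platelet-derived growth factor differed in opposite directions: Pdgfra was at 138, 140 and 154 CPM in arthritic libraries against 382, 443 and 364 CPM with FGF2 (-1.47 ± 0.08), and Pdgfrb at 760, 754 and 786 CPM against 307, 272 and 314 CPM (1.36 ± 0.07). Neither overlapped between the groups. S100a4 (-1.36 ± 0.15), Prrx1 (-0.94 ± 0.08) and Vim (-0.60 ± 0.07) were higher with FGF2.

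Cell cycle genes differed little. Of 20 DNA replication genes 11 were higher in arthritic cells and 2 with FGF2 (median 0.28), and of 20 mitosis genes 12 and 1 (median 0.34). Among both lists Ccne1 (1.16 ± 0.10) was the only gene with a called difference of at least 2-fold. Mki67, a proliferation marker, was at 144, 131 and 139 CPM in arthritic libraries and at 118, 90.4 and 119 CPM with FGF2 (0.34 ± 0.09, adjusted p = 0.00309). FGF2 replicate 2 was the lowest library for Mki67, Top2a, Rrm2 and Tpx2, and without it 9 replication and 10 mitosis genes were higher in arthritic cells. Rrm2 (0.73 ± 0.21) was not called with the 6 libraries alone (adjusted p = 0.125).

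Genes of amino acid supply and the integrated stress response were higher in arthritic cells for 17 of 20 members, 15 of them by at least 2-fold, and with FGF2 for 1 (median 1.48). Trib3, a pseudokinase induced by ATF4, was at 68, 66.8 and 80.3 CPM in arthritic libraries against 7.43, 6.78 and 6.54 CPM with FGF2 (3.37 ± 0.19, adjusted p = 5.6e-10), without overlap. Chac1, a glutathione-degrading enzyme, differed by 3.13 ± 0.24, the mitochondrial folate enzyme gene Mthfd2 by 2.19 ± 0.17, Ddit3 by 2.02 ± 0.08 and Asns, asparagine synthetase, by 1.90 ± 0.11. Atf4 was 1.11 ± 0.07 higher. In arthritic cells Trib3 lay 0.83 under naive on the log2 scale, and Chac1 and Asns lay nearer to it. With FGF2, Trib3, Chac1 and Asns lay 4.21, 3.35 and 1.94 under naive.

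Phgdh, the first enzyme of serine synthesis, stood against the rest of that list, at 862, 703 and 937 CPM with FGF2 and at 328, 322 and 329 CPM in arthritic libraries (-1.35 ± 0.12, adjusted p = 1.09e-08). The later enzymes of the same route, Psat1 (1.22 ± 0.13) and Psph (1.74 ± 0.09), were higher in arthritic cells.

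Cholesterol synthesis genes were higher in arthritic cells for 19 of 20 members, and the remaining one, Insig1 (0.05 ± 0.07), was not called. The differences were moderate, with a median of 0.75, and 4 reached 2-fold. Hmgcs1 was at 184, 191 and 188 CPM against 81.4, 64.9 and 81.1 CPM (1.31 ± 0.08, adjusted p = 1.48e-12), without overlap. Cyp51 (1.24 ± 0.08) and Sc5d (1.01 ± 0.07) were also among them.

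Glycolysis and hypoxia genes were divided, 8 of 23 higher in arthritic cells and 6 with FGF2 (median 0.13). Hk2 (1.12 ± 0.09) and Pfkfb3 (1.73 ± 0.13) were higher in arthritic cells, while the glucose transporter gene Slc2a1 (-0.74 ± 0.07) and Vegfa (-0.77 ± 0.05) were higher with FGF2. Of 14 p53 and senescence genes, 4 were higher in arthritic cells and 9 with FGF2 (6 without FGF2 replicate 2). Cdkn2a (-1.11 ± 0.15) and Cdkn2b (-0.91 ± 0.10), inhibitors of the cell cycle, had the higher level with FGF2 and the death receptor gene Fas in arthritic cells (2.39 ± 0.14).

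Lysosomal genes were more often on the FGF2 side, 11 of 21 against 2 (9 without FGF2 replicate 2), with a median of -0.18 and Gpnmb (-1.43 ± 0.07) and Ctsb as the members past 2-fold. Clock genes were higher in arthritic cells for 12 of 17 members and with FGF2 for none, with Nfil3 (2.43 ± 0.09), Per2 (1.39 ± 0.13) and Dbp (0.61 ± 0.11) among them and a median of 0.53. Harvest times are unknown here. Among 21 immediate early and dissociation genes, 11 were higher in arthritic cells and 6 with FGF2. Fos (1.31 ± 0.09), Egr1 (0.88 ± 0.06) and Egr2 (1.86 ± 0.11) were higher in arthritic cells and Egr3 (-2.34 ± 0.08) and Jun (-0.74 ± 0.08) with FGF2. Of 13 mitochondrially encoded genes 1 was called, mt-Co3 (0.46, adjusted p = 0.0264), a call lost in 5 alternatives (adjusted p of 0.0548 to 0.126).

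Wnt pathway genes were higher in arthritic cells for 19 of 31 members and with FGF2 for 8 (median 0.89). R-spondins, which strengthen Wnt signals through Lgr receptors, were among the higher ones: Rspo2 was at 14.5, 10.7 and 15.2 CPM against 2.5, 1.52 and 1.85 CPM (2.78 ± 0.15, adjusted p = 1.12e-12), and Rspo3 differed by 2.17 ± 0.18. The groups did not overlap for Rspo2. Frizzled receptor genes Fzd1 (1.19 ± 0.07) and Fzd4 (1.48 ± 0.12) had the same direction. The inhibitor gene Dkk2 was at 141, 137 and 142 CPM with FGF2 against 33.4, 31.9 and 37 CPM (-2.03 ± 0.09), whereas the inhibitors Sfrp1 (2.84) and Dkk3 (1.40 ± 0.15) were higher in arthritic cells. Axin2, a feedback target of the pathway, differed by -0.52 ± 0.20 (adjusted p = 0.0346), a call lost in 6 alternatives, with -0.22 (adjusted p = 0.35) without FGF2 replicate 2.

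BMP, GDF and activin genes gave 12 of 25 higher in arthritic cells and 9 with FGF2 (median 0.28). Bmp2 was at 248, 369 and 239 CPM with FGF2 against 5.37, 3.46 and 4.4 CPM in arthritic libraries (-6.00 ± 0.26, adjusted p = 8.37e-11), far apart, and the antagonist gene Grem1 was at 1080, 1150 and 1060 CPM against 236, 244 and 216 CPM (-2.24 ± 0.09). The activin antagonist gene Fst was also higher with FGF2 (-1.76 ± 0.09). Bmp4 (2.82 ± 0.29) and Id4 (2.27 ± 0.23) were higher in arthritic cells. Inhba, the activin A subunit, was higher in arthritic cells by 0.34 ± 0.10, with both groups above naive, by 1.98 and 1.63.

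Of 28 secreted growth factor genes 11 were higher in each group. Igf1 was at 9.75, 12 and 11.9 CPM in arthritic libraries against 0.933, 0.793 and 0.636 CPM with FGF2 (3.83 ± 0.32, adjusted p = 3.58e-08), without overlap, and Igfbp2 differed by 2.77 ± 0.17. Angpt2 (-3.09 ± 0.21) and the neurotrophin gene Bdnf (-1.30 ± 0.11) were higher with FGF2. In the axon guidance list 12 of 26 were higher in arthritic cells and 10 with FGF2. Sema7a, a membrane-anchored semaphorin, was at 732, 980 and 748 CPM with FGF2 against 70.1, 65.3 and 62.5 CPM (-3.64 ± 0.14, adjusted p = 3.99e-13), and the receptor gene Epha3 was higher in arthritic cells (3.39 ± 0.12), as was Slit3 (2.14 ± 0.08).

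Skeletal genes were divided too, 12 of 21 higher in arthritic cells and 6 with FGF2 (median 0.82). Sox5, a chondrogenic factor, was at 31.6, 37 and 32.1 CPM with FGF2 against 2.75, 2.4 and 2.52 CPM (-3.71 ± 0.11, adjusted p = 1.4e-17), Col10a1 differed by -3.14 ± 0.13 and Sox9 by -1.78 ± 0.09. Alpl, alkaline phosphatase (3.69 ± 0.57, and 4.78 without FGF2 replicate 2), Cilp (3.26 ± 0.18) and Runx2 (0.66 ± 0.07) were higher in arthritic cells. Bone and cartilage genes stood on both sides. The bone genes Dmp1 (-6.29) and Phex (-4.3, and -4.91 without arthritic replicate 1) were higher with FGF2. Dmp1 had a mean of 0.0908 CPM in arthritic libraries on plain library totals. The cartilage genes Acan (1.35) and Matn3 (2.23) were higher in arthritic cells. Adipogenic genes gave 3 of 10 in each direction (4 with FGF2 without FGF2 replicate 2, where Pparg was called at -0.44, adjusted p = 0.000219, and the median of -0.12 became 0.08), with Fabp5 (2.09 ± 0.21) higher in arthritic cells and Cebpa (-1.61 ± 0.08) with FGF2.

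Genes that mark limb position differed by small amounts, apart from a few. Of 19 tested, 7 were higher in arthritic cells and 9 with FGF2. Shox2 was at 14.4, 17.5 and 18.9 CPM in arthritic libraries against 3.2, 2.71 and 2.36 CPM with FGF2 (2.62 ± 0.17, adjusted p = 7.09e-12), and Hoxc11 at 7.49, 7.06 and 8.13 CPM against 1.93, 1.55 and 1.82 CPM (2.09 ± 0.20). Neither overlapped. Both also stood above naive in arthritic cells, by 2.32 and 2.10, and Shox2 and Hoxc11 with FGF2 lay within 0.29 of naive on the log2 scale. Hoxd13 (-0.39 ± 0.08) and Pitx1 (-0.31 ± 0.08) were higher with FGF2 by less than 2-fold. Which paws entered a sample is unknown here.

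Some genes differed from naive by a similar amount in both groups. The rule asked for calls of at least 2-fold in the same direction against naive and an interval of the direct difference within 0.5 of 0, and 20 genes met it. Over all genes, calls of at least 2-fold against naive made up 9.43% (higher) and 10.5% (lower) with FGF2, and 2.32% and 3.29% in arthritic cells. Because both comparisons use the same naive libraries, their number carries no test. Htr1b, a serotonin receptor gene, was at 13.7, 15.4 and 13.4 CPM in arthritic, 15.9, 14.4 and 17.4 CPM in FGF2-treated libraries and 2.2 CPM on average in naive ones (-0.17 ± 0.15, adjusted p = 0.364). Mettl7a1 was at 13.9, 13 and 14.8 CPM and at 13.4, 13.3 and 15 CPM against a naive mean of 39.6 CPM (-0.00 ± 0.10). For both genes the arthritic and FGF2 libraries overlapped.

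F5, the coagulation factor V gene (0.07 ± 0.14), the intermediate filament gene Synm (-0.10 ± 0.09) and the homeobox gene Pax9 (0.06 ± 0.12) were low in both groups, with naive means of 34.2, 30.6 and 18.3 CPM. Tfpi2 (-0.15 ± 0.12) and Dact2 (-0.11 ± 0.12) were high in both, with naive means of 6.06 and 3.32 CPM. Sema3f (-0.02 ± 0.19) rested on FGF2 replicate 2, at 39.9 CPM against 21.5 and 19.5 CPM in the other FGF2 libraries: without it the difference was 0.38 (adjusted p = 0.000628). Tfpi2 was called without the same library (-0.31, adjusted p = 0.0155), so the likeness of these 2 genes depends on it.

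Further genes, chosen after their values were seen, show where the groups differ from naive separately. Ccn3 was at 1010, 2490 and 918 CPM with FGF2, 33.8, 34.9 and 39.1 CPM in arthritic libraries and 160 CPM on average in naive ones, so the groups lay on opposite sides of naive (-5.36 ± 0.37, and -4.75 without FGF2 replicate 2). Ace, angiotensin-converting enzyme, had the same order, with -4.64 ± 0.51 (-3.87 without that library). Actg2 (4.13 ± 0.29), Myl9 (3.57 ± 0.30) and Siglecg (3.51 ± 0.23) had the reverse order. With FGF2, Steap3 (-0.049) and Pla2g2e (-0.016) were not called against naive on the log2 scale. Pdgfra (0.32, adjusted p = 0.00139) and Plin4 (0.25, adjusted p = 0.045) were called slightly above naive with FGF2. In arthritic cells Pdgfra, Steap3, Plin4 and Pla2g2e lay under naive by 1.14, 1.57, 1.24 and 1.39.

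With OPN in both arms the comparison changed for many genes. Of 15072 genes, 9015 (59.8%) differed between OPN-treated arthritic cells and naive cells with FGF2 and OPN, 4609 (30.6%) higher in arthritic cells and 4406 (29.2%) lower. With library totals alone the split was 3261 to 5844, with the median of all genes at -0.15. Differences of at least 2-fold were called for 6.83% of genes on the arthritic and 9.68% on the FGF2 side, and 508 genes were higher in arthritic cells in both comparisons, 40.8% of the list without OPN and 49.4% of the list with it, and 633 were lower in both (48.1% and 43.4%). The difference between the 2 comparisons was itself called for 5863 genes (38.9%), 3231 (21.4%) with a more positive and 2632 (17.5%) with a more negative value with OPN. Changes of at least 2-fold made up 4.66% and 7.11%. Library totals alone gave 2451 and 3169 called changes. Of the 1246 genes at least 2-fold higher in arthritic cells without OPN, 728 had a called change towards or past 0 with OPN and 33 a called change away from it. Of the 1317 on the FGF2 side the numbers were 615 and 47. Both lists were chosen for large values without OPN, which enter the change with the opposite sign. A lean towards 0 is therefore partly built in, and these counts and medians carry no test. The median of the first list went from 1.84 to 0.80, that of the second from -1.76 to -1.04.

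The ERK list lost most of its difference. With OPN, 7 of its 22 members were higher in arthritic cells and 10 with FGF2 (median -0.17), and the change was called upward for 20 members and downward for 2. Itgb3 was at 64.2, 56.8 and 64.8 CPM with FGF2 and OPN and at 48.4, 45.6 and 48 CPM in OPN-treated arthritic libraries (-0.39 ± 0.07), a change of 3.06 ± 0.11 from the comparison without OPN (adjusted p = 5.98e-15). Sema7a, at 43.8, 48.6 and 49.8 CPM against 43.5, 37.5 and 40.5 CPM, was not called (-0.23 ± 0.13, adjusted p = 0.151). Spp1 kept a difference of -2.68 ± 0.15, smaller by 0.72 ± 0.21.

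Cell cycle genes changed most evenly. All 20 replication genes and all 20 mitosis genes were higher in OPN-treated arthritic cells than in naive cells with FGF2 and OPN, with medians of 1.31 and 1.32, and the change was called for 18 and 20 of them. Mki67 was at 142, 147 and 150 CPM against 55.9, 49 and 42.3 CPM (1.57 ± 0.09), whereas arthritic libraries without OPN were at 131 to 144 CPM. Phgdh turned round, at 302, 316 and 292 CPM against 100, 70.4 and 105 CPM (1.72 ± 0.12, a change of 3.07 ± 0.17). The groups did not overlap for either gene.

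With OPN, 15 of 21 collagen chains were higher in arthritic cells and 1 lower (median 0.91), and the change was called downward for 12 chains and upward for 5. Of 20 contractile genes 16 were higher and 2 lower (median 1.01), with the change called downward for 7, 5 of them by at least 2-fold, and upward for 1. Of 20 stress response genes 18 were higher and 1 lower (median 1.86), with the change called upward for 8 and downward for 2. Sublining and universal fibroblast genes (8 higher, 9 lower of 21), proteoglycan and elastic fibre genes (9 and 9 of 21) and Wnt genes (10 and 13 of 31) were divided. Complement genes were lower in arthritic cells for 8 of 14 members and higher for 3. Aspn was at 117, 136 and 127 CPM with FGF2 and OPN against 53.8, 63.3 and 64.2 CPM (-1.07 ± 0.12), the opposite of its difference without OPN. Cxcl12, at 608, 730 and 606 CPM against 183, 188 and 194 CPM (-1.78 ± 0.11), and Comp (-1.02 ± 0.14) turned round as well. Without OPN these genes had been lower with FGF2.

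**Figure D5:**
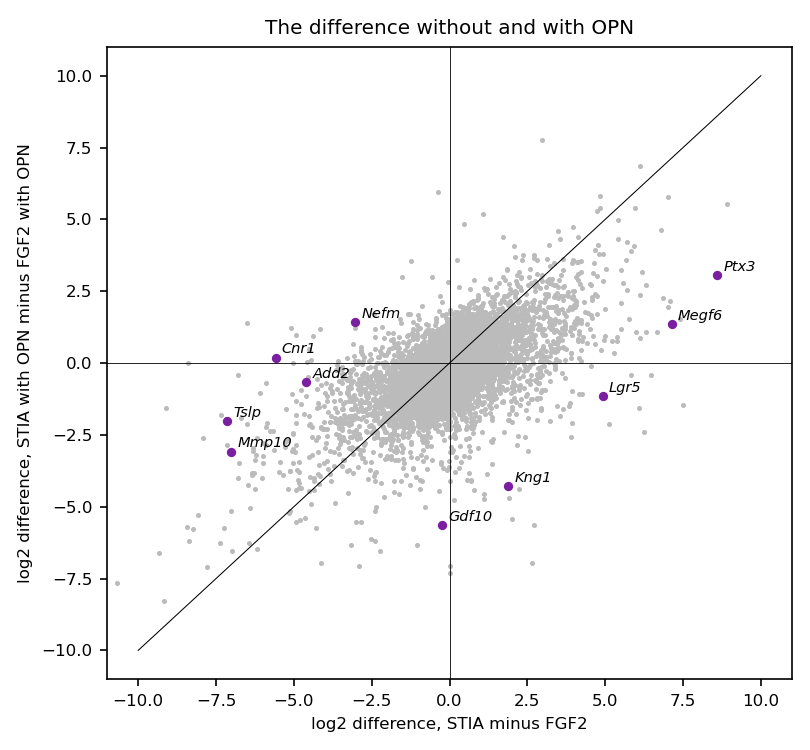
Each point is a tested gene, with the log2 difference STIA minus FGF2 on the x axis and the difference STIA with OPN minus FGF2 with OPN on the y axis. Labelled are the 5 largest called changes each way among genes with a mean of at least 5 CPM, and the diagonal marks equal differences; Cnr1 moves from -5.59 to 0.19 and Ptx3 from 8.59 to 3.07.

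Markers of other cell types were low or mixed. On plain library totals, 12 macrophage markers summed to 13.8 to 15.2 CPM in arthritic, 55.4 to 58.6 CPM in FGF2-treated and 13.9 to 14.9 CPM in naive libraries. Cd14, which fibroblasts also express, made up 42.3 to 47.7 CPM of the FGF2 sum, and the pan-leukocyte gene Ptprc was at most 0.217 CPM in any of these libraries. C1qa was at 0 in all 6 libraries compared. Of 5 macrophage markers tested 3 were higher with FGF2 and 2 in arthritic cells: mean levels in arthritic and FGF2-treated libraries were 0.764 and 6.91 CPM for Mrc1, 1.94 and 3.97 CPM for Cd68, 2.12 and 0.492 CPM for Csf1r, and 3.07 and 0.594 CPM for Lyz2. All 4 were called, and their part in the differences above was not tested. Neutrophil and lymphocyte markers summed to 1.68 to 2.9 CPM with FGF2, nearly all of it Ly6g, and to 0.205 to 0.47 CPM in arthritic libraries, with S100a9, Csf3r and Cd3e at 0 in both groups.

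Skeletal muscle markers summed to 58.5 to 75.9 CPM in arthritic libraries and 4.47 to 13.4 CPM with FGF2. Acta1, an actin gene, gave 56.2 to 73.8 CPM of the arthritic sum, Myf5 and Pax7 were at 0 in both groups, and Ckm was at most 0.0361 CPM. Pericyte and smooth muscle markers summed to 353 to 417 CPM in arthritic and 263 to 374 CPM in FGF2-treated libraries. Cspg4 made up most of both sums, at 292 to 361 CPM and 170 to 326 CPM. It was not called (0.37, adjusted p = 0.104), though some alternatives called it, such as limma-voom (0.41). Myh11 was at 8.89 to 9.92 CPM and 0.434 to 0.973 CPM, while Rgs5 was at 1.78 to 2.38 CPM and 27.5, 70.5 and 27.9 CPM. Acta1 and Myh11 move with the contractile genes above and Rgs5 against them, and their part in those differences was not tested. Endothelial markers summed to 11.5 to 13.0 CPM in arthritic and 15.5 to 15.9 CPM in FGF2-treated libraries, with Cldn5 at no more than 0.0271 CPM. Among the endothelial markers, Kdr (2.54 against 9.31 CPM) and Cdh5 (1.05 against 3.58 CPM) were higher with FGF2 and Tek (6.35 against 1.14 CPM) and Erg (1.45 against 0.329 CPM) in arthritic cells. Schwann cell markers summed to 60.1 to 73.6 and 51.9 to 68.0 CPM.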

How the data were processed

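The authors deposited whole-number counts per gene from paired-end RNA-seq of 18 libraries. Per the submitters' processing notes, STAR and featureCounts were used on GRCm38 (mm10); no version, strand setting or annotation release is named, so reads of overlapping antisense genes cannot be told apart. Of 32285 gene identifiers, 32158 matched a symbol, and the others held 0.0294% of counts. Counts were fitted with edgeR 4.0.16 (R 4.3.3; TMM, filterByExpr, robust quasi-likelihood test, group means, all 18 libraries) and adjusted by Benjamini-Hochberg, with a call at 0.05. Standard errors are the absolute log2 difference over the root of F. Replicates differed by more than sampling noise in all 18 pairs.

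Members and gene lists were chosen with earlier results of these data known. Named genes are the 15 largest called differences each way (mean of at least 5 CPM, no overlap), up to 4 members of each list by the rule, the 5 largest changes each way with OPN, and up to 8 genes alike against naive; others were named after their values were seen. Alternatives were DESeq2 1.42.0 (test and size factors), limma-voom 3.58.1, library totals alone, no filter, only the compared libraries, a replicate block and leaving out each library. Deviations of same-numbered libraries were correlated as a check of pairing: FGF2 and arthritic libraries gave 0.125, -0.075 and -0.099, and FGF2 libraries without and with OPN 0.122, 0.187 and 0.176. FGF2 libraries with OPN and arthritic libraries without OPN gave 0.174, 0.08 and 0.262.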

Additional observations from a re-analysis of the deposited data

Results flagged for a closer look

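The difference between arthritic and FGF2-treated cells was itself different with OPN for 5863 genes by the test of that difference (edgeR, Benjamini-Hochberg adjustment). The 5 largest changes each way are given here, as log2 values with OPN minus without. Kng1 changed by -6.18 (adjusted p = 6.78e-10): it was at 0.8, 0.529 and 0.363 CPM with FGF2 and at 44.2, 50.2 and 50.3 CPM with FGF2 and OPN, while arthritic libraries stayed at 1.52 to 3.02 CPM. Gdf10, a BMP-family ligand gene, changed by -5.42 (adjusted p = 3.23e-09) and rose from 0.454 to 1.12 CPM with FGF2 to 28.4 to 33.7 CPM with FGF2 and OPN, with arthritic libraries under 0.75 CPM. Lgr5 changed by -6.06, Megf6 by -5.77 and Ptx3 by -5.52. For Ptx3, libraries with FGF2 and OPN were at 65.5, 70.1 and 128 CPM and arthritic libraries with OPN at 713, 821 and 674 CPM.

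In the other direction Cnr1, a cannabinoid receptor gene, changed by 5.78 (adjusted p = 9.92e-07). It was at 69.1, 142 and 62.5 CPM with FGF2 and at 2.39, 2.76 and 1.58 CPM with FGF2 and OPN, and arthritic libraries were at 1.63 to 2.99 CPM. Tslp changed by 5.15 and Mmp10 by 3.93, the neurofilament gene Nefm by 4.45 and the adducin gene Add2 by 3.94. In FGF2-treated libraries with OPN, Nefm was at 0.665 to 0.929 CPM and Add2 at 2.31 to 2.63 CPM, against 18.5 to 22 and 27.9 to 51.9 CPM without it.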

How the results depend on the processing

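The count of called genes was 8055 to 8332 under the other settings and 7522 to 7948 when 1 library was left out, against 8291. With OPN it was 8557 to 9105 and 8277 to 8879, against 9015, and for the change with OPN 5620 to 5934 and 5281 to 6084, against 5863. With library totals alone, 41.8% of called genes were higher in arthritic cells (50.0% with TMM), 35.8% with OPN (51.1%), and 43.6% for the change (55.1%). The change with OPN was not run on the compared libraries alone. Of 2275 alternative values for 175 genes named by rule, 2266 kept their side of the threshold, 7 lost the call and 1 gained it. Some genes that were not called, such as Gdf10 (-0.51 to 0.3), changed sign without a call. Other list members named in the text, such as Axin2, C3, Lum and Prg4, are not among the 175, and their changed calls stand beside their values. Sema3f ranged from -0.21 without FGF2 replicate 3 to 0.38 without FGF2 replicate 2, a reversal whose cause was not tested. Same-numbered FGF2 and arthritic libraries correlated at 0.125, -0.075 and -0.099 and are not taken as pairs. FGF2 libraries without and with OPN correlated at 0.122, 0.187 and 0.176, each best with its own number. FGF2 libraries with OPN and arthritic libraries without OPN gave 0.174, 0.08 and 0.262, also each best with its own number. Both results bear on the change with OPN. With the replicate block 4115 genes were higher and 4082 lower in arthritic cells, with OPN 4536 and 4354, and for the change 3131 and 2562, all within 1.5 times the counts without it. Depth limits genes near the floor of 3 counts, such as Tmem163 and Megf6.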
